A study of Mus musculus with 32 samples.

Results

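The left ventricle of male mice labelled as knockouts of Esr2, the gene of oestrogen receptor beta, was compared between mice with transverse aortic constriction (TAC) and sham-operated mice. The comparison used 8 of the 32 arrays of the series, 4 TAC mice and 4 sham mice, chosen by sex, genotype and surgery in the labels. TAC narrows the aorta by a band, so that the left ventricle pumps against a raised pressure and thickens. All 8 mice were male C57Bl6 mice labelled as 10 weeks old, and the labels do not say whether that was the age at surgery or at the end. The TAC mice were banded for 9 weeks, and the labels give no time for the sham mice. The sham mice carried the same knockout, so the comparison is one of surgery within the knockout, and how the allele was made was not analysed here. The whole series crosses sex, genotype and surgery, with 4 individual mice in each of 8 groups and 1 Affymetrix mouse 430 2.0 array per mouse. In what follows, the values of single mice are given in the order of replicate numbers 1 to 4 in the labels, and a mouse is called sham 1 or TAC 1 by that number.

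A heart under pressure load is known to return to a fetal programme of transcripts, with natriuretic peptides, slow myosin and skeletal actin among them. Fibroblasts lay down collagen and other matrix under transforming growth factor beta and connective tissue growth factor, while the myocytes use less fatty acid and repolarise more slowly. Oestrogen receptor beta is a nuclear receptor for oestradiol, and the title of the series names remodelling and apoptosis as outcomes it bears on.

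The Esr2 probe set was examined first. It gave signals of 77.8, 67.3, 158 and 169.6 in sham mice and 122, 136, 50.9 and 74.9 in TAC mice of the knockout males, and a range of 5.9 to 29.4 in the 8 wild-type males, which lies below all 8 knockout values. No source used here places this probe set with respect to the targeted exons, so it checks nothing about the knockout. "Knockout" below stands for mice labelled so. Sex-linked genes were at the levels of the labelled sex: Xist, which silences an X chromosome in females, ran from 1.7 to 22.4 in these 8 mice, against 1342.3 to 3632.2 in the knockout females. The Y-linked Kdm5d ran from 280.0 to 476.8 here and from 0.7 to 35.1 in the knockout females. Of 9 defining transcripts of ventricular myocytes, all named on the arrays, the mean log2 level was 14.58 to 14.74 in sham mice and 14.41 to 14.77 in TAC mice.

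Across 18201 genes, 583 (3.2%) passed limma's test at a Benjamini-Hochberg adjusted p of 0.05 in the 8 mice. Of these, 413 (2.27%) were higher and 170 (0.934%) lower with TAC, and 285 and 98 of them differed by at least 1 on the log2 scale. The median change over all genes was 0.02. All changes here are differences of log2(signal + 32) between 4 TAC and 4 sham mice, with their SE, and understate the change of genes with low signal. An unadjusted p below 0.05 was found for 4210 genes. Of these 583 genes, 578 had groups that did not overlap, 411 with every TAC mouse above every sham mouse and 167 with every TAC mouse below. The same separation held for 1487 (8.17%) and 822 (4.52%) of all genes. Counted over 34957 probe sets, 1053 (3.01%) passed, 627 (1.79%) higher and 426 (1.22%) lower.

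Sham 4 and sham 2 stood apart from the other mice. Their mean squared deviations from the sham mean were 0.185 and 0.151, against 0.0553 to 0.0906 for the other 6 mice. Sham 4 correlated better with the TAC arrays (mean r of 0.951) than with the other sham arrays (0.933). Genes are not independent replicates, and these correlations only describe the arrays. Without sham 4, 1635 genes (8.98%) were higher and 1130 (6.21%) lower, and all 583 genes above were among them. Without TAC 2 the counts were 562 and 272. Leaving out any other mouse lowered the counts, to 10 higher and 2 lower without sham 1 or without TAC 4, 39 and 6 without TAC 1, 44 and 8 without TAC 3, 54 and 10 without sham 2, and 71 and 17 without sham 3. All 583 genes kept their direction in every one of these 8 fits, but the 578 without overlap could not change it, so this shows little. Only 10 passed in each of the fits: Acta1, Ankrd2, Cilp, Cnksr1, Fibin, Lman1l, Myh7 and Ngef among the higher genes, and Cenpf and Scara5 among the lower. The arrays also differed in the 3-prime over 5-prime difference of the beta-actin array control, a sign of RNA or labelling quality. It was 0.67, 1.10, 0.55 and 0.73 in sham 1 to 4 and 0.29, 0.48, 0.39 and 0.44 in TAC 1 to 4. The means were 0.76 ± 0.24 (log2, SD, n = 4) in sham mice and 0.40 ± 0.08 in TAC mice, a difference of -0.36 (exact permutation p = 0.0286, two-sided, the smallest that 4 against 4 mice can give). The same measure for Gapdh differed by 0.07 (exact permutation p = 0.143). With the beta-actin measure as a covariate 1 gene was higher and 0 lower, and with the Gapdh measure 2 and 0. Most calls were lost, and the sizes of change varied by gene. Under the Gapdh and beta-actin measures Myh7 changed by 3.38 and 3.34 (3.17 without them), Acta1 by 2.15 and 2.31 (2.26) and Cilp by 3.67 and 3.47 (3.51). The median of the collagens was 0.67 and 0.60 (0.59). Under the beta-actin measure Nppa shrank to 1.66 (2.29) and Nppb to 0.81 (1.14). In the beta-actin measure every TAC mouse lay below every sham mouse, so its part and that of surgery cannot be told apart here. The part of RNA quality in the results below was not tested beyond these fits. In the gene lists below, the highest counts with 1 mouse left out came without sham 4 or TAC 2, and leaving out any of the other 6 mice never raised a count. Counts of a list are to be read beside the shares over all genes, 2.27% higher and 0.934% lower. Counts without sham 4 are to be read beside the shares of that fit, 8.98% higher and 6.21% lower. Without TAC 2, the fit called 562 of 18201 genes higher and 272 lower. Counts of members with a change above 0 are to be read beside 9597 of the 18201 genes. In bulk tissue, fewer cells of a type and less RNA per cell cannot be told apart.

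**Figure D1:**
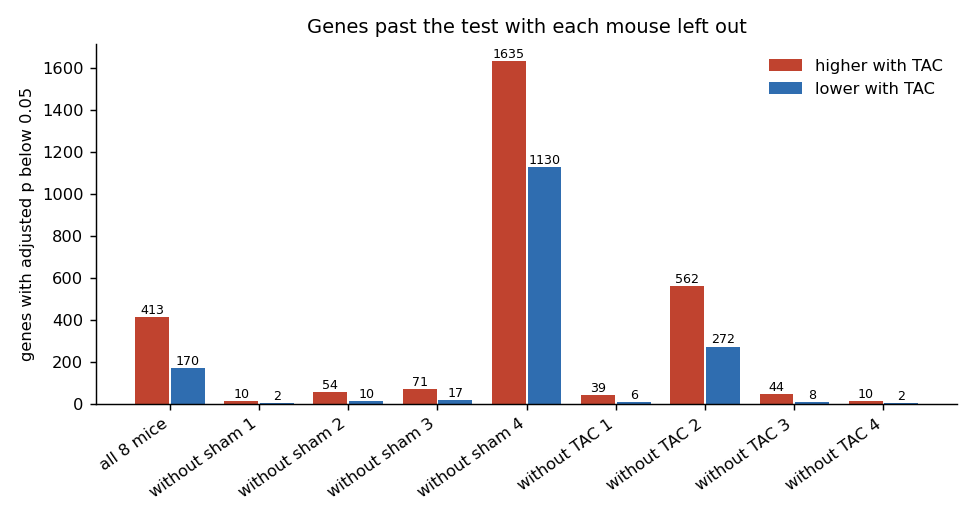
Number of genes with an adjusted p below 0.05 (y axis) with all 8 male knockout mice and with each mouse left out in turn (x axis), red for genes higher and blue for genes lower with TAC. Leaving out sham 4 raised the counts to 1635 and 1130, and leaving out sham 1 or TAC 4 lowered them to 10 and 2.

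Myh7 and Acta1 of the fetal and stress programme rose, and both passed with any mouse left out. Of 34 named genes, 11 rose and 1 fell, with a median change of 0.29 against 0.02 over all genes; with 1 mouse left out, 3 to 16 rose. The median was smaller with the Gapdh or beta-actin measure as a covariate, at 0.10 and 0.09. By role, the genes that rose were 2 of 3 natriuretic peptides, 2 of 9 contractile isoforms (median -0.01), 6 of 11 cytoskeletal and stretch genes (median 0.98) and 1 of 11 signalling genes (median -0.05). Myh7, the slow beta isoform of myosin heavy chain, had signals of 4905, 4312, 2624 and 4719 in sham mice and 41346, 29398, 37816 and 38596 in TAC mice. The groups were far apart, with the lowest TAC mouse above the highest sham mouse by several fold. Myh7 rose 9.01-fold (3.17 ± 0.21, adjusted p = 0.000402), the smallest adjusted p of all genes, and passed with any mouse left out. Signals of Acta1, skeletal alpha-actin, were 6389, 7907, 6452 and 11059.9 in sham mice and 47332, 35289, 34947 and 32896 in TAC mice. Acta1 rose 4.79-fold (2.26 ± 0.20, adjusted p = 0.00304), again with no overlap and with any mouse left out, although sham 4 lay highest of the sham mice. Myh6, the adult alpha isoform of myosin heavy chain, was measured at 52257, 50519, 48636 and 45768 in sham mice and 58876, 47762, 40379 and 43179 in TAC mice, and its groups overlapped (change -0.07, adjusted p = 0.844, 95% interval -0.40 to 0.27). These are among the brightest probe sets of the arrays, whose highest signals ran from 43898 to 58996, and how far such signals are compressed was not tested.

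Both cardiac natriuretic peptides rose. Nppa, which encodes atrial natriuretic peptide, stood at 9951, 4652, 7246 and 13523 in sham mice and 48845, 35357, 38502 and 39669 in TAC mice. The lowest TAC mouse was well above sham 4, the highest of the sham mice, and the change was 2.29 ± 0.28, adjusted p = 0.0101, lost only without TAC 4. Nppb, which encodes brain natriuretic peptide, had signals of 10688, 9032, 17162 and 7382 in sham mice and 17243, 23626, 32355 and 21866 in TAC mice. Here TAC 1 lay only just above sham 3, and the rise of 1.14 ± 0.26 was near the threshold (adjusted p = 0.0471) and held in 2 of the 8 fits that left out 1 mouse. Nppc, for C-type natriuretic peptide, had a change of -0.31, adjusted p = 0.459. Since Nppa is also an atrial transcript, the atrial markers were set beside it: of 13, 1 rose (Nppa itself) and 2 fell, Kcnj3 and Kcnj5, and the mean level was 8.13 to 9.25 in sham mice and 8.40 to 8.98 in TAC mice. The median change of that list was -0.01, and -0.40 and -1.09 with the Gapdh and beta-actin covariates. The atrial light chains Myl7 and Myl4 had changes of -0.06 and 0.12 and did not pass.

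The stretch-sensing ankyrin repeat proteins of the sarcomere rose as well. Ankrd1, a nuclear and sarcomeric cofactor, stood at 22632, 21777, 21637 and 24104 in sham mice and 40128, 35381, 35949 and 34284 in TAC mice, with a narrow spread in both groups and a rise of 0.69 ± 0.12 (adjusted p = 0.0252). Ankrd2, its relative of slow muscle, was near background in all sham mice, at 7.6, 17.9, 11.4 and 14.9, and reached 213, 159, 305 and 230.1 in TAC mice. Its rise of 2.50 ± 0.22, adjusted p = 0.00304 held with any mouse left out. Ankrd23 rose by 1.59 ± 0.29, the LIM protein Fhl1 by 1.44 ± 0.19, filamin C (Flnc) by 1.68 ± 0.29 and the actin regulator Enah by 1.04 ± 0.17 (adjusted p from 0.0114 to 0.027). Rcan1, an inhibitor and transcriptional target of calcineurin, had signals of 2056, 2044, 3084 and 3727 in sham mice and 12016, 4771, 19497 and 14495 in TAC mice. TAC 2 was the lowest TAC mouse, near sham 4, and the rise was 2.08 ± 0.38, adjusted p = 0.0267. Mef2a, a transcription factor of muscle genes, was the only member that fell (-0.92 ± 0.18, adjusted p = 0.0318), while Gata4 and Srf, for other factors of the programme, had changes of -0.05 and 0.51 and did not pass.

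**Figure D2:**
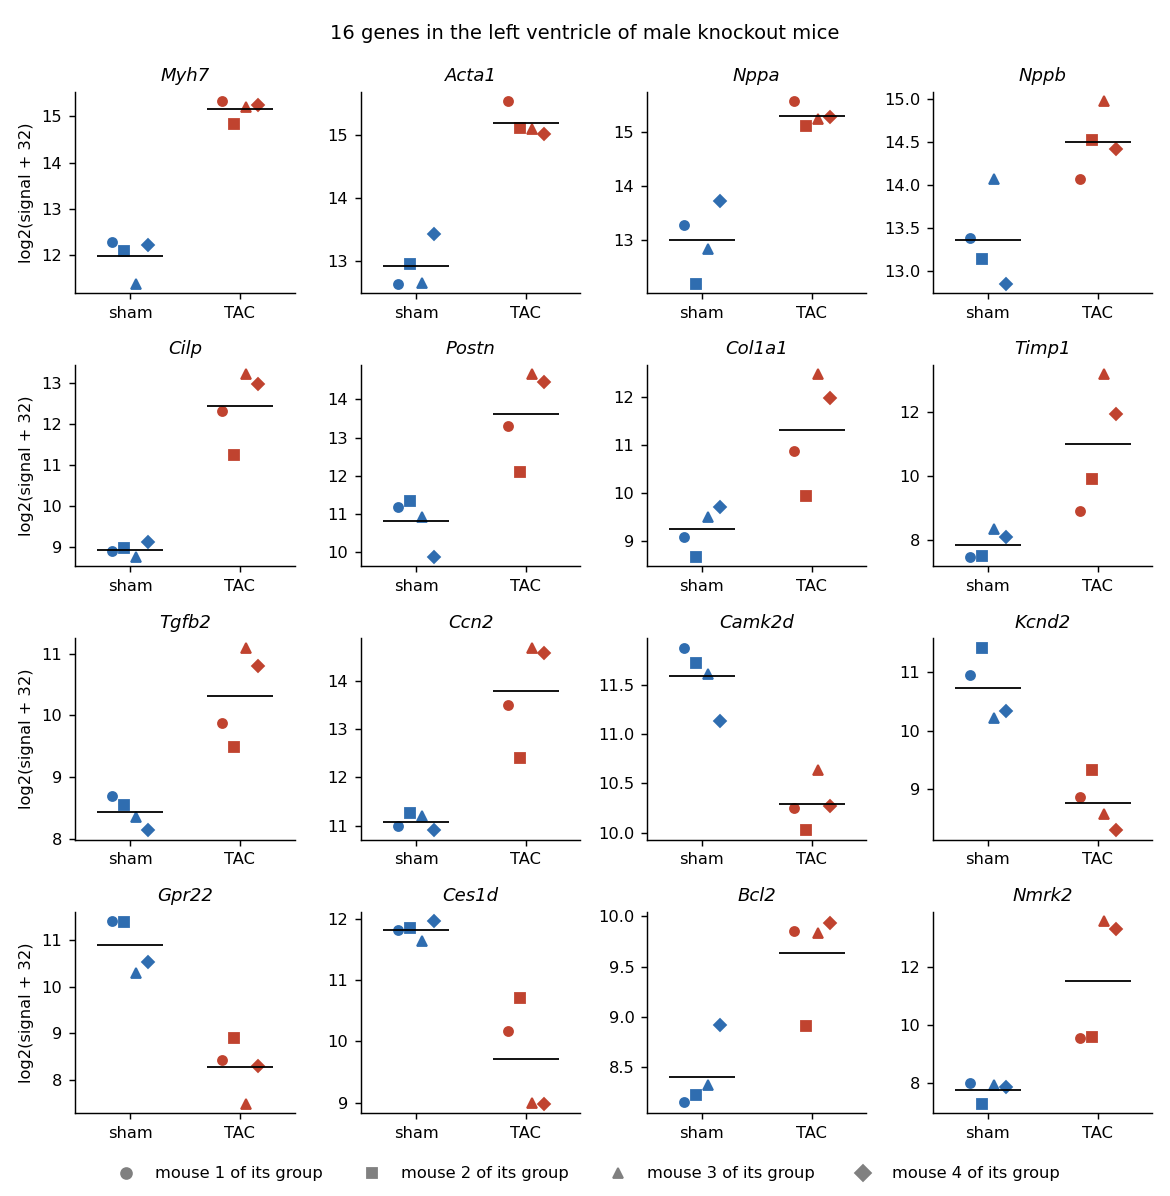
Level of 16 genes as log2(signal + 32) (y axis, scaled for each panel) in the 4 sham mice (blue) and 4 TAC mice (red) of the male knockout groups; marker shapes give the mouse number within its group and lines the group mean. Myh7, Acta1, Nppa and Cilp are separated by wide gaps, Bcl2 in TAC 2 lies level with sham 4, and TAC 3 and TAC 4 lie far above TAC 1 and TAC 2 for Nmrk2.

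The promoters of these transcripts are shown because M-CAT, CArG and MEF2 elements are textbook sites of TEAD, serum response factor and MEF2 proteins in muscle genes. Windows of 250 bases before and 50 bases from the start were read from RefSeq (GRCm38.p6) for 5 genes, Nppa, Nppb, Myh7, Acta1 and Ankrd1, and searched on both strands for M-CAT (CATTCC), the CArG box, the MEF2 site and the TATA box (TATAAA). The capitals mark matches, which read GGAATG where M-CAT lies on the other strand. Shares were taken over 32851 mouse promoter windows of this length, with 1 chromosome left out. Of these, 14.7% hold M-CAT, 1.63% the CArG box, 1.86% the MEF2 site and 13.6% the TATA box. Positions count from the annotated start. The 4 with an M-CAT match are these, each on 1 line, 5′ to 3′ in the direction of the gene.
Acta1, chr8:123894726-123895025, minus strand: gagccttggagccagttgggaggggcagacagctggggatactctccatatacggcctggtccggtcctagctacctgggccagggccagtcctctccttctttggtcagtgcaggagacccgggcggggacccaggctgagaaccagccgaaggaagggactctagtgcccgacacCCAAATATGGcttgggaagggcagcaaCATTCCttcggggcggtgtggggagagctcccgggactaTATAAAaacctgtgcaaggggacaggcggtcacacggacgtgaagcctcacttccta
Nppb, chr4:147985650-147985949, plus strand: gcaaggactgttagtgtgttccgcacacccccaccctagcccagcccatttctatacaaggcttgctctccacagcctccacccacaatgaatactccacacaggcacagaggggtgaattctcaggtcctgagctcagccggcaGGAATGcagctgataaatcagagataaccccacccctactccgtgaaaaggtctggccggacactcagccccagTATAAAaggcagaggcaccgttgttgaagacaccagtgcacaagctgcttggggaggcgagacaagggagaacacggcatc
Ankrd1, chr19:36119795-36120094, minus strand: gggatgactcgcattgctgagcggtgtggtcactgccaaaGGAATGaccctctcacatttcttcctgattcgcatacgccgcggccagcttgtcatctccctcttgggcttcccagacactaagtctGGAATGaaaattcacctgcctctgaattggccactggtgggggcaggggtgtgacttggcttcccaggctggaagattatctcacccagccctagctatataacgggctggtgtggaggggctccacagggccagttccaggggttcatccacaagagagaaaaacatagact
Myh7, chr14:54994577-54994876, minus strand: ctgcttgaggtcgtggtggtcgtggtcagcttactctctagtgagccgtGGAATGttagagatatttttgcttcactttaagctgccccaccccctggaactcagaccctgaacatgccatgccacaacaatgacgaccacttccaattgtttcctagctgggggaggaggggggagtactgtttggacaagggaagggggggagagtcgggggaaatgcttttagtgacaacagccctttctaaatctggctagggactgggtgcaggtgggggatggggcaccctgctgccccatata
M-CAT began at -46 in Acta1, -105 in Nppb, -201 in Myh7 and at -210 and -123 in Ankrd1. Acta1 also held a CArG box at -73 and Acta1 and Nppb a TATA box at -7 and -31. The Nppa window (chr4:148000472-148000771, plus strand) held only a TATA box at -9. No window matched the MEF2 site, and the Myh7 gene has 2 annotated starts, of which 1 is shown. A match is a run of letters and not a measured binding site.

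Of 34 structural genes of the sarcomere and Z-disc, 2 (5.88%, against 2.27% of all genes) went up past the test and 0 fell, with a median of 0.02, and 0 to 6 rose with 1 mouse left out. The pair that rose were Synpo2l, a Z-disc protein that binds actin, at 5977, 5483, 5796 and 5538 in sham mice and 14491, 10251, 22379.9 and 17054 in TAC mice (1.43 ± 0.21, adjusted p = 0.0158), and the Z-disc adaptor Pdlim3 (0.80 ± 0.18, adjusted p = 0.0445). Another Synpo2l probe set moved the other way with an unadjusted p below 0.05, so this gene is uncertain. Titin (Ttn), troponin T (Tnnt2), ventricular light chain (Myl2) and myosin-binding protein C (Mybpc3) had changes of -0.17, -0.05, -0.12 and 0.33, none past the test. At the intercalated disc, which couples neighbouring myocytes, 2 of 14 genes fell and none rose (median -0.18; 0 to 1 rose and 0 to 4 fell with 1 mouse left out). They were the desmosomal cadherin Dsg2 at 8333, 6930.4, 7852 and 4879.8 in sham mice and 3530.5, 5139.8, 2500.2 and 2896 in TAC mice (-1.01 ± 0.24, adjusted p = 0.0486), where sham 4 lay below TAC 2, and the adherens protein Ctnna3 at 425, 528, 378 and 587 in sham mice and 253, 318, 189 and 222 in TAC mice (-0.88 ± 0.21, adjusted p = 0.0486), with no overlap.

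Part of the extracellular matrix genes rose, some of them by the largest changes measured. Of 38 collagen genes 14 rose and 0 fell (median 0.59), of 59 glycoproteins and proteoglycans 16 rose and 1 fell (median 0.74), and of 47 genes of crosslinking and turnover 10 rose and 0 fell (median 0.70), against a median of 0.02 over all genes. These counts depended on single mice: with 1 mouse left out, 0 to 16 collagens, 1 to 24 matrix proteins and 0 to 19 crosslinking and turnover genes rose, with 0 or 1 in each list without sham 1 or TAC 4, and the most without sham 4, or without TAC 2 for the matrix proteins. The mean log2 level of the matrix proteins was 9.26, 9.19, 9.34 and 9.28 in the sham mice and 10.12, 9.62, 10.65 and 10.52 in the TAC mice. Sham mice lay close together, and TAC 2 was the lowest TAC mouse, as it was for 38 of the 59 genes.

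Among fibrillar collagens, which bear tension, Col1a1 and Col1a2 encode the chains of type I collagen. Signals of Col1a1 were 514, 374, 694 and 799 in sham mice and 1842, 948, 5626 and 3990.4 in TAC mice. The groups did not overlap, but TAC 2 was close to sham 4 while TAC 3 and TAC 4 were several fold above it, and the rise was 2.07 ± 0.47, adjusted p = 0.0453. Col1a2 stood at 2801, 3431, 2739 and 3027 in sham mice and 8204, 6103, 17744 and 12293 in TAC mice and rose by 1.76 ± 0.28 (adjusted p = 0.0189). Col3a1, of the finer type III fibrils, was measured at 8062, 9253, 8540.3 and 7432 in sham mice and 17202, 11409.8, 27848 and 24857 in TAC mice, with a smaller rise of 1.21 ± 0.25 (adjusted p = 0.0359). Col5a1 and Col5a2, which set fibril diameter, rose by 1.27 ± 0.27 and 2.21 ± 0.41. Network collagens rose too: Col8a1, a short-chain collagen of vessel walls, stood at 1190, 1219.9, 791 and 787 in sham mice and 5570.5, 2815, 9644 and 7895 in TAC mice and rose by 2.55 ± 0.34, adjusted p = 0.0114, the smallest adjusted p of the collagens, passing in 6 of the 8 fits that left out 1 mouse. Its partner Col8a2 rose by 2.25 ± 0.49, and the basement membrane chains Col4a1 and Col4a2 by 1.09 ± 0.20 and 1.32 ± 0.23. Col12a1, which decorates type I fibrils, had the largest SE of the collagens, at 50.1, 79.8, 58.5 and 54.4 in sham mice and 464, 119, 1259.5 and 1342 in TAC mice (2.71 ± 0.59, adjusted p = 0.0396). Members of low signal such as Col9a1, Col11a1 and Col17a1, better known from cartilage and skin, had changes of 0.12, -0.10 and -0.06.

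Matricellular and elastic-fibre proteins held the 3 largest rises that passed, those of Mfap4, Comp and Ltbp2. Mfap4, a microfibril-associated protein, was near background in the sham mice at 27.7, 6.9, 21.7 and 19.3 and reached 1207, 237, 2848 and 2950.5 in the TAC mice. TAC 2 again lay lowest, still above every sham mouse, and the rise of 4.69 ± 0.64 was the largest that passed (adjusted p = 0.0117). Comp, a pentameric thrombospondin of cartilage and stressed tissue, stood at 94.0, 65.9, 219 and 154 in sham mice and 2774, 624, 6951 and 8683 in TAC mice (4.39 ± 0.68, adjusted p = 0.0187). Thbs4, a thrombospondin induced by cardiac load, was at 367, 322, 272 and 369 in sham mice and 2625, 1234, 5831 and 6162 in TAC mice (3.20 ± 0.43, adjusted p = 0.0117). Both were separated without overlap. Cilp, a matrix protein that binds transforming growth factor beta, had signals of 447, 470.2, 399.9 and 521 in sham mice and 5128, 2400.1, 9540.1 and 8109 in TAC mice, and its rise of 3.51 ± 0.35, adjusted p = 0.00559 was the only one in this group that held with any mouse left out. Ltbp2, of elastic microfibrils, was at 50.4, 84.1, 114 and 55.4 in sham mice and 881, 437, 3340 and 3011 in TAC mice and rose by 3.79 ± 0.55. Postn, periostin of activated fibroblasts, was at 2301, 2564, 1913 and 908 in sham mice and 10030.1, 4380, 25801 and 22470.5 in TAC mice, and sham 4 was the lowest of all 8 mice (2.80 ± 0.52, adjusted p = 0.0281). Biglycan (Bgn) and fibromodulin (Fmod), small leucine-rich proteoglycans, rose by 2.40 ± 0.41 and 2.65 ± 0.54, and elastin (Eln) and Sparc by 1.37 ± 0.29 and 1.28 ± 0.22. Ltbp1, a carrier of latent transforming growth factor beta, was the 1 matrix gene that fell (-0.99 ± 0.19, adjusted p = 0.0327). Fibronectin (Fn1) did not pass: its signals of 1032, 839.5, 1027 and 1027 in sham mice and 2299.7, 1140.3, 6637 and 5546 in TAC mice gave 1.65 ± 0.45, adjusted p = 0.073, with TAC 2 near the sham mice.

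Enzymes that process and crosslink collagen were among those that rose. Loxl1, a lysyl oxidase that crosslinks elastin, stood at 1521, 1175, 1691 and 2037 in sham mice and 6407, 3202, 8088 and 7524 in TAC mice with no overlap (1.89 ± 0.28, adjusted p = 0.0161). Pcolce and Pcolce2, enhancers of procollagen cleavage, rose by 1.35 ± 0.23 and 1.13 ± 0.18, and the prolyl hydroxylases P4ha1 and P3h2 by 1.52 ± 0.35 and 1.41 ± 0.26. Of the proteases, Mmp2, a gelatinase, rose by 1.26 ± 0.25 and Adamtsl2, a relative of the ADAMTS proteases without enzyme activity, by 1.76 ± 0.27. Lox and Timp1 had large differences that did not pass. Lox, the main collagen crosslinker, was at 135, 234, 156 and 132 in sham mice and 359.5, 233, 3545 and 2647 in TAC mice (2.37 ± 0.74, adjusted p = 0.0995), and Timp1, an inhibitor of matrix metalloproteases, was at 143, 147, 289 and 240.2 in sham mice and 442, 929, 9240.5 and 3911 in TAC mice (3.14 ± 0.75, adjusted p = 0.0516). In both, TAC 3 and TAC 4 were several fold above TAC 1 and TAC 2, and for Lox TAC 2 lay among the sham mice.

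**Figure D3:**
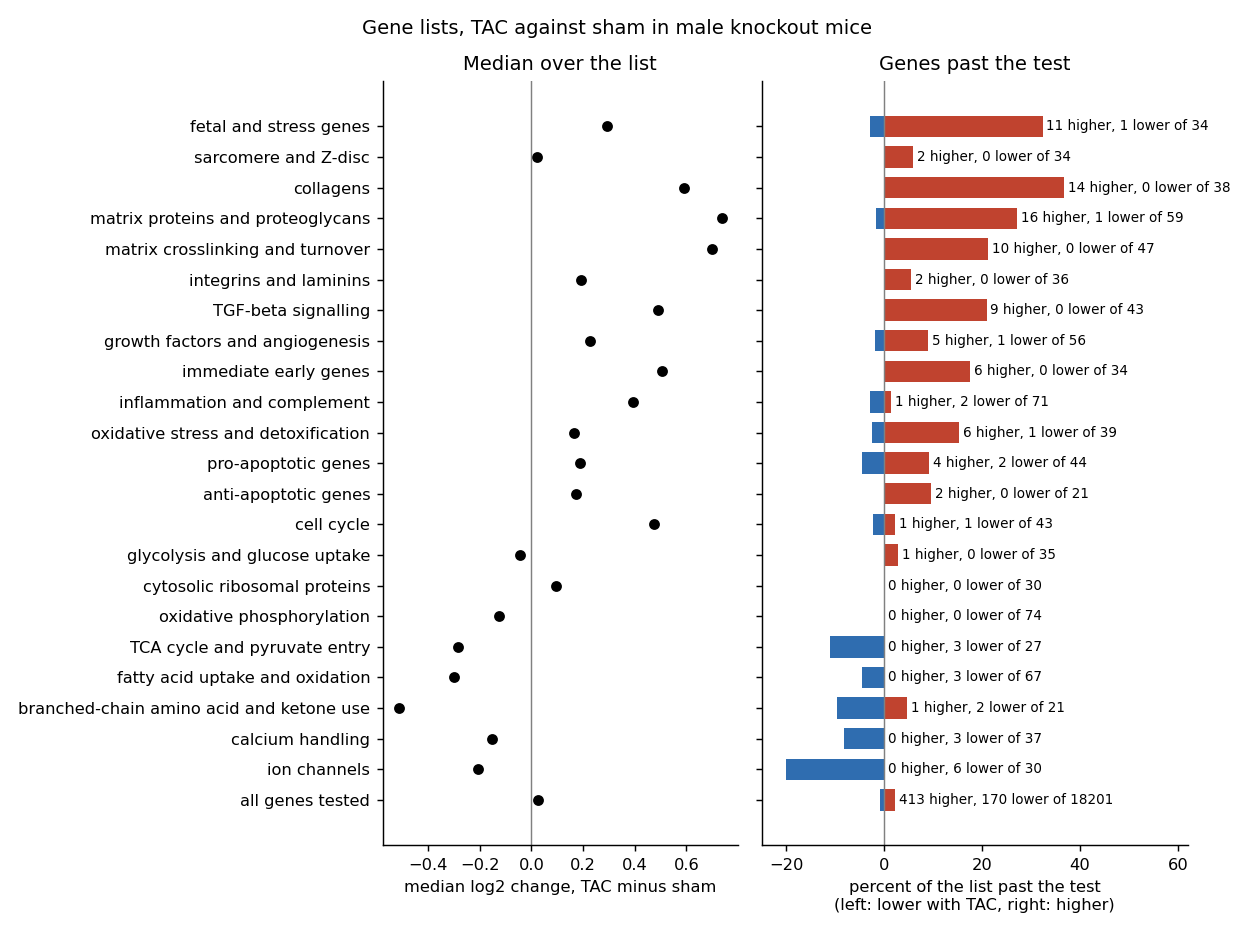
Median log2 change, TAC minus sham (left), and percent of genes past the test (right, red higher and blue lower) of 22 gene lists and of all genes in the male knockout mice. Collagens (14 of 38 higher) and fetal and stress genes (11 of 34) stand out on the right. The lists of oxidative phosphorylation, the citric acid cycle, fatty acids and ion channels have medians below 0.

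Within transforming growth factor beta signalling, 9 of 43 genes rose and none fell (median 0.49; 0 to 12 rose with 1 mouse left out). By role, 2 of 7 ligands, 6 of 15 targets, 1 of 11 SMADs and inhibitors and none of 10 receptors and binding proteins rose. Of the ligands, Tgfb2 was at 384, 343, 296 and 249.5 in sham mice and 906, 685, 2156 and 1740.5 in TAC mice (1.88 ± 0.32, adjusted p = 0.0231) and Tgfb3 at 207, 180.5, 284 and 341 in sham mice and 786, 766, 1389 and 1128 in TAC mice (1.87 ± 0.25, adjusted p = 0.0114). Neither overlapped between groups. Tgfb1, the best known ligand of fibrosis, was at 492, 314, 634 and 778 in sham mice and 976, 675, 949.6 and 749 in TAC mice and did not pass (0.62 ± 0.25, adjusted p = 0.188), with TAC 2 and TAC 4 below sham 4. The receptors Tgfbr1, Tgfbr2 and Tgfbr3 had changes of -0.06, 0.53 and -0.43. Among targets, Ccn2, connective tissue growth factor, was at 1991, 2410.5, 2304 and 1875 in sham mice and 11527, 5386, 26255 and 24226 in TAC mice (2.71 ± 0.42, adjusted p = 0.0187). Fstl3, a secreted antagonist of activin and myostatin, was at 77.6, 29.0, 140.1 and 109.5 in sham mice and 358, 457, 754 and 768 in TAC mice (2.38 ± 0.35, adjusted p = 0.0158), and Pmepa1, a feedback inhibitor, was at 754, 785, 762 and 814 in sham mice and 2033, 1469, 3087 and 3069.9 in TAC mice (1.53 ± 0.23, adjusted p = 0.0158). All 3 were free of overlap. Ccn5 and Fstl1 rose by 2.33 ± 0.38 and 1.61 ± 0.36, and the inhibitory Smad6 by 1.17 ± 0.23, beside 0.49 for Smad7, which did not pass.

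The median over 36 integrins and laminins, by which cells hold the matrix, was 0.19. With 1 mouse left out, 0 to 5 rose and 0 to 2 fell. In the main comparison 2 of the 36 rose (5.56%, against 2.27% of all genes) and none fell. They were the fibronectin receptor chain Itga5 at 361, 228, 386 and 451 in sham mice and 853, 725, 1419.6 and 1471 in TAC mice (1.54 ± 0.27, adjusted p = 0.0237) and Itgb5 at 1686, 1204, 2025 and 3484 in sham mice and 5039, 3938, 6026 and 6591 in TAC mice (1.43 ± 0.29, adjusted p = 0.034), both without overlap. In BMP and Wnt signalling 1 of 34 genes rose (2.94%, against 2.27% of all genes) and 1 fell (2.94%, against 0.934%). The median was 0.02, and 0 to 4 rose and 0 to 2 fell with 1 mouse left out. Frzb, a secreted Wnt antagonist, rose from 246, 246, 295 and 156 in sham mice to 921, 475, 2089.6 and 1379 in TAC mice (2.06 ± 0.38, adjusted p = 0.027). The ligand Wnt5a, at 480.4, 561, 296 and 372 in sham mice and 207, 247, 136 and 95.7 in TAC mice, fell without overlap (-1.20 ± 0.28, adjusted p = 0.0486).

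Fibroblast markers overlapped with these lists. Of 20, 6 rose and none fell (median 0.57), with a mean level of 10.51 to 10.80 in sham mice and 10.95 to 12.13 in TAC mice. The 6 were Col1a1, Col1a2, Col3a1, Mfap5, Postn and Pi16, all of them secreted or matrix genes. Pi16, a peptidase inhibitor of adventitial fibroblasts, stood at 681, 426, 1927 and 1942 in sham mice and 5240.4, 3312, 11029.9 and 13913 in TAC mice (2.77 ± 0.54, adjusted p = 0.0321), with TAC 2 the lowest TAC mouse. Among the other fibroblast markers, Pdgfra changed by -0.38, Tcf21 by 0.50, Ddr2 by -0.51 and Dcn by 0.16, none past the test. Not all of the others changed so little: the largest change of the list was 3.00, in a marker that did not pass. At an unadjusted p below 0.05, 9 of the 20 were higher and 1 lower. The part of fibroblast number in the matrix changes was not tested.

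**Figure D4:**
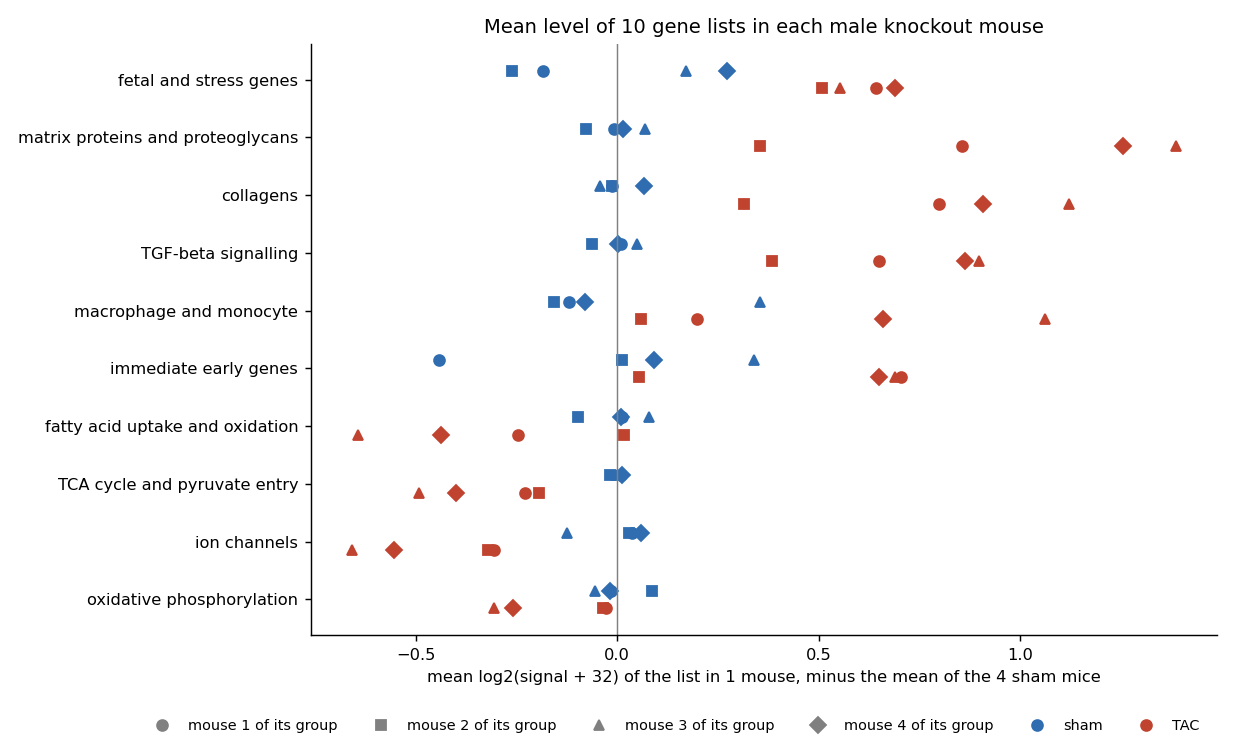
Mean log2(signal + 32) of 10 gene lists in each male knockout mouse, minus the mean of the 4 sham mice (x axis); shapes give the mouse number, blue sham and red TAC. TAC 2 lies nearest the sham mice for matrix proteins (9.62 against 10.12 to 10.65 in the other TAC mice) and for fatty acid genes it lies among them.

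Neurohormonal genes moved both ways. In the list of natriuretic receptors, angiotensin, endothelin and adrenergic signalling, 2 of 36 genes rose (5.56%, against 2.27% of all genes). In the same list 4 fell (11.1%, against 0.934%). The median was -0.14, and 0 to 4 rose and 0 to 8 fell with 1 mouse left out. Ace, angiotensin-converting enzyme, was at 384, 338, 509.6 and 692 in sham mice and 1498, 776, 1218 and 1499 in TAC mice and rose without overlap (1.32 ± 0.26, adjusted p = 0.033), while its substrate's precursor Agt lay near background (-0.21, adjusted p = 0.811). Grk5, a kinase that desensitises adrenergic receptors, rose by 1.00 ± 0.23. The cyclic-nucleotide phosphodiesterases Pde3a, at 423, 319.9, 519 and 296 in sham mice and 129, 137, 193 and 118 in TAC mice (-1.24 ± 0.23, adjusted p = 0.027), and Pde4d, at 2243, 2613, 1890.5 and 1451 in sham mice and 798, 1292, 638 and 635 in TAC mice (-1.28 ± 0.25, adjusted p = 0.0316), both fell. So did a pair of enzymes of natriuretic peptides. Corin, which cleaves the Nppa product into its active form, was at 9945, 9904, 8514 and 6564 in sham mice and 4678, 5077, 3908 and 6301 in TAC mice (-0.80 ± 0.19, adjusted p = 0.0465), with sham 4 just above TAC 4. Neprilysin (Mme), which degrades the peptides, was at 462, 574, 282 and 208 in sham mice and 116, 157, 73.9 and 56.8 in TAC mice (-1.61 ± 0.33, adjusted p = 0.0364). The clearance receptor Npr3 had a change of -0.02, adjusted p = 0.968.

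Of 56 genes of growth factors and angiogenesis 5 rose (8.93%, against 2.27% of all genes) and 1 fell (1.79%, against 0.934%). The median was 0.23, and 0 to 10 rose with 1 mouse left out. Hbegf, a membrane-anchored ligand of the EGF receptor, was at 608, 653, 696 and 676 in sham mice and 1456, 1166, 3278 and 2106 in TAC mice (1.45 ± 0.27, adjusted p = 0.0291). Fgf6, a muscle fibroblast growth factor of low signal, was at 103, 31.5, 51.1 and 8.7 in sham mice and 261, 216, 313 and 273 in TAC mice (2.01 ± 0.33, adjusted p = 0.021), and the groups did not overlap in either gene. The insulin-like growth factor binding proteins Igfbp6 and Igfbp7 rose by 1.56 ± 0.32 and 1.42 ± 0.23, and Fgf18 by 0.88 ± 0.20. Fgf16, a cardiac fibroblast growth factor, fell (-1.13 ± 0.25, adjusted p = 0.0423).

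In the ion channel list 6 of 30 genes fell and none rose, with a median of -0.21, and 0 to 8 fell with 1 mouse left out. Of the 6, 5 were genes of potassium channels, which repolarise the myocyte, and the other was Gpr22, which is no channel. Kcnd2, a pore of the transient outward current, was at 1953, 2716, 1157 and 1269 in sham mice and 438, 616, 352 and 283 in TAC mice, with no overlap (-1.96 ± 0.30, adjusted p = 0.0175; -1.29 with the beta-actin covariate). Kcnip2, its accessory subunit, was at 2749.6, 2574, 3470.5 and 4669 in sham mice and 2654, 2292, 1215 and 1462 in TAC mice and did not pass (-0.84 ± 0.27, adjusted p = 0.106). Kcnj3 and Kcnj5 form the acetylcholine-activated channel: Kcnj3 was at 2479, 2882, 849.5 and 949.6 in sham mice and 404, 632, 163 and 276 in TAC mice (-2.13 ± 0.45, adjusted p = 0.039) and Kcnj5 at 1574, 1455, 1330.3 and 1121 in sham mice and 514, 954, 410.1 and 425 in TAC mice (-1.28 ± 0.25, adjusted p = 0.0316). The silent subunit Kcnv2 (-1.29 ± 0.23) and Abcc9, a sulphonylurea receptor of ATP-sensitive channels (-1.13 ± 0.19), fell as well. Gpr22, an orphan receptor of cardiac myocytes kept with this list, had the largest fall that passed, from 2706, 2649.9, 1234 and 1450.1 in sham mice to 315, 448, 147 and 282 in TAC mice (-2.63 ± 0.33, adjusted p = 0.0114), passing in 6 of 8 fits with 1 mouse left out.

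In calcium handling, 3 of 37 genes fell (8.11%, against 0.934% of all genes) and none rose (median -0.15). With 1 mouse left out, 0 to 6 fell. Camk2d, the main cardiac calcium/calmodulin kinase, was at 3723, 3349, 3081 and 2213 in sham mice and 1183, 1009, 1564 and 1202 in TAC mice, with no overlap (-1.29 ± 0.19, adjusted p = 0.0164). Ryr2, the calcium release channel, was at 17866, 20306, 14619.6 and 13172 in sham mice and 9749, 11193, 8194 and 8319 in TAC mice (-0.81 ± 0.17, adjusted p = 0.0389), and Cacnb2, a subunit of the L-type calcium channel, at 3028, 2837, 2644 and 3482 in sham mice and 1872, 2141, 1468 and 1588 in TAC mice (-0.76 ± 0.16, adjusted p = 0.0359). Both were lower in every TAC mouse. The pump Atp2a2 was at 39958, 38989, 36410.4 and 35394 in sham mice and 41546, 35976, 30056 and 29779 in TAC mice with overlapping groups (-0.15 ± 0.15, adjusted p = 0.61, 95% interval -0.47 to 0.18). Its inhibitor phospholamban (Pln) was at 46363, 48455, 42941 and 38653 in sham mice and 41014, 34067, 30705 and 29462 in TAC mice and did not pass (-0.39 ± 0.15, adjusted p = 0.164), with TAC 1 above sham 4.

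Fatty acid genes had changes below 0 over most of the list. Of 67, 3 fell (4.48%, against 0.934% of all genes) and none rose, 16 had a change above 0, and the median was -0.30. Without TAC 2, 12 fell, and without sham 4, 15 fell and 1 rose; leaving out any other mouse left none. The mean level was 11.71 to 11.88 in sham mice and 11.16 to 11.82 in TAC mice, and TAC 2 lay within the sham mice. Decr1, an auxiliary enzyme of unsaturated fatty acid oxidation, was at 15753, 14719, 14941 and 11025 in sham mice and 6875, 9402, 7593 and 6300.1 in TAC mice (-0.90 ± 0.17, adjusted p = 0.0289). Ces1d, a carboxylesterase that releases fatty acids from triglyceride, was at 3569, 3662, 3145 and 3973 in sham mice and 1126, 1651, 478 and 473 in TAC mice (-2.10 ± 0.35, adjusted p = 0.0212). Acsl6, which activates fatty acids to acyl-CoA, fell too (-0.74 ± 0.15, adjusted p = 0.0359). Acadm, medium-chain acyl-CoA dehydrogenase, was at 38021, 38527, 34054 and 29962 in sham mice and 17341, 28194, 20368 and 23266 in TAC mice, without overlap but short of the threshold (-0.67 ± 0.17, adjusted p = 0.0603). The regulators did not pass: Ppargc1a, a coactivator of mitochondrial genes, had -0.81 ± 0.25, adjusted p = 0.095, Ppara -0.41 ± 0.24, adjusted p = 0.341, and Esrra and Esrrg, the oestrogen-related receptors, 0.66 ± 0.32, adjusted p = 0.258 and -1.0 ± 0.32, adjusted p = 0.109. Pdk4, which turns pyruvate away from oxidation, was at 15961, 12864, 14170.3 and 3549 in sham mice and 7088, 15379, 5554 and 12081 in TAC mice (-0.12 ± 0.47, adjusted p = 0.91), with sham 4 the lowest of all 8 mice.

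Further into the mitochondrion, 3 of 27 genes of the citric acid cycle and pyruvate entry fell and none rose (median -0.29; 0 to 1 rose and 0 to 7 fell with 1 mouse left out). Idh3a, of isocitrate dehydrogenase, was at 24036, 25006, 23548 and 23376 in sham mice and 14992, 18683, 13868 and 15728 in TAC mice (-0.61 ± 0.13, adjusted p = 0.0403), and Sdha, of succinate dehydrogenase, at 23944, 25302, 23439.9 and 23284 in sham mice and 15482, 18398, 15083 and 14328 in TAC mice (-0.61 ± 0.13, adjusted p = 0.0384). Each was lower in every TAC mouse, by about the same amount as Suclg2 of succinyl-CoA synthetase (-0.70 ± 0.14, adjusted p = 0.0355). The mean level of the list was 13.68, 13.65, 13.67 and 13.68 in sham mice and 13.44, 13.48, 13.18 and 13.27 in TAC mice, so that every TAC mouse lay below every sham mouse. Of 21 genes of branched-chain amino acid and ketone use, 2 fell and 1 rose, with the lowest median of these metabolic lists (-0.51; 0 to 1 rose and 0 to 7 fell with 1 mouse left out). Aldh6a1, of valine breakdown, was at 13002, 14655, 10435 and 8051 in sham mice and 6137, 6549.8, 3336 and 4423 in TAC mice (-1.18 ± 0.25, adjusted p = 0.0359), and Mmut, methylmalonyl-CoA mutase, fell (-0.93 ± 0.21, adjusted p = 0.0423). The gene that rose was Bdh1, a ketone body dehydrogenase, at 3807, 4229, 6828 and 5414 in sham mice and 15458, 10966, 9433 and 11652 in TAC mice with no overlap (1.24 ± 0.21, adjusted p = 0.022). In oxidative phosphorylation limma's test passed 0 of 74 genes in either direction (median -0.12, 9 above 0), and 10 had an unadjusted p below 0.05. Without sham 4 it passed 3 lower and 1 higher, beside 6.21% lower and 8.98% higher of all genes in that fit. Of 35 genes of glycolysis and glucose uptake, 1 rose (2.86%, against 2.27% of all genes) and none fell. The median was -0.04, and without sham 4, 5 rose and 5 fell. The gene that rose was Pfkp, the platelet isoform of phosphofructokinase, at 1278, 1153, 1890.5 and 1582 in sham mice and 2834, 2605, 5402 and 5066 in TAC mice (1.36 ± 0.26, adjusted p = 0.0304). Nmrk2, a muscle nicotinamide riboside kinase of NAD synthesis, rose by 3.75 ± 0.86, adjusted p = 0.0455, with signals of 221, 122, 207 and 201 in sham mice and 719.6, 726, 12222 and 10198 in TAC mice. TAC 3 and TAC 4 were over an order of magnitude above TAC 1 and TAC 2, and its SE was the widest of the 12 largest rises.

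Apoptosis genes, which the title of the series names, moved in both directions. Of 44 pro-apoptotic genes 4 rose (9.09%, against 2.27% of all genes) and 2 fell (4.55%, against 0.934%), with a median of 0.19. Of 21 anti-apoptotic genes 2 rose (9.52%) and none fell (median 0.17). With 1 mouse left out, 0 to 8 pro-apoptotic genes rose and 0 to 4 fell, and 0 to 3 anti-apoptotic genes rose and 0 to 2 fell. Tnfrsf12a, the receptor of TWEAK, was at 1113, 860.3, 2773 and 2536 in sham mice and 6580.4, 5352, 9875 and 8968 in TAC mice, without overlap (2.19 ± 0.36, adjusted p = 0.021). Bcl2l11, which encodes the BH3-only protein Bim, was at 1353, 1519, 1175 and 1593 in sham mice and 677, 912, 574 and 624 in TAC mice and fell by 1.00 ± 0.18 (adjusted p = 0.0243), as did the mitochondrial apoptosis-inducing factor Aifm1 at 4778, 5449.7, 4469 and 4152 in sham mice and 3072, 3448, 2110.2 and 2215 in TAC mice (-0.81 ± 0.18, adjusted p = 0.0423). The tumour necrosis factor receptor Tnfrsf1a rose by 0.73 ± 0.16, its adaptor Tradd by 0.88 ± 0.21 and the pore former Bak1 by 0.85 ± 0.20. On the protective side, Bcl2 was at 253, 267, 289 and 450.5 in sham mice and 892, 447, 879 and 947 in TAC mice and rose (1.23 ± 0.26, adjusted p = 0.0391), although TAC 2 lay just below sham 4. Clu, an extracellular chaperone, was at 16824, 16673, 18797 and 17484 in sham mice and 27962, 23628, 33359 and 36683 in TAC mice (0.78 ± 0.16, adjusted p = 0.034). The caspases of the list that were measured did not pass, with -0.15 for Casp8 and -0.27 for Casp9.

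Immediate early genes, which respond within minutes to stimuli and also to dissection, had 6 of 34 members higher and none lower (median 0.51; 0 to 8 with 1 mouse left out). Myc, a growth-promoting transcription factor, was at 60.3, 168, 87.3 and 30.8 in sham mice and 302, 220.1, 495 and 481 in TAC mice (1.84 ± 0.37, adjusted p = 0.033). Ier3 was at 2048, 1700.2, 2144 and 2976 in sham mice and 5091, 3633, 5351 and 6384 in TAC mice (1.20 ± 0.21, adjusted p = 0.0237), and the groups overlapped in neither gene. The growth-arrest genes Btg2 and Gadd45g rose by 1.34 ± 0.30 and 1.70 ± 0.35, and Junb and Egr2 by 1.21 ± 0.28 and 1.58 ± 0.36. The classic members Fos and Egr1 had changes of 0.24 and 0.26 and did not pass. The mean level of the list was 8.44, 8.89, 9.22 and 8.97 in sham mice and 9.59, 8.94, 9.57 and 9.53 in TAC mice, so that TAC 2 lay below sham 3 and sham 4.

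Of 71 genes of inflammation and complement, 1 rose and 2 fell (4.23%, against 3.2% of all genes). A change above 0 was found for 56, against 9597 of all 18201 genes, and the median was 0.39. Without sham 4, 13 rose and 3 fell, beside 8.98% higher and 6.21% lower of all genes in that fit. Cx3cl1, a membrane-bound chemokine for monocytes, was at 158, 136, 176 and 305 in sham mice and 512, 307, 914 and 895 in TAC mice (1.54 ± 0.34, adjusted p = 0.0423), with TAC 2 level with sham 4. Ccl11, an eosinophil chemokine, was at 181, 176, 275 and 152 in sham mice and 13.3, 91.3, 53.8 and 16.1 in TAC mice (-1.69 ± 0.33, adjusted p = 0.033), and Il15, a lymphocyte cytokine that muscle makes, at 3188, 3126, 2208 and 2289 in sham mice and 1063, 1659, 756 and 768 in TAC mice (-1.38 ± 0.25, adjusted p = 0.0264). Both fell without overlap. Serpina3n, an acute-phase protease inhibitor, was at 53.7, 118, 336 and 263 in sham mice and 261, 794, 7631 and 7064 in TAC mice and did not pass (3.30 ± 0.95, adjusted p = 0.0839). TAC 1 lay among the sham mice, while TAC 3 and TAC 4 were far above. The interferon response had 1 of 27 genes higher (3.7%, against 2.27% of all genes) and none lower (median 0.17). The gene was the regulator Irf7, at 221, 167, 243 and 379.7 in sham mice and 719.5, 441, 621 and 636 in TAC mice (1.19 ± 0.24, adjusted p = 0.0353). In that list, without sham 4, 8 rose and 2 fell. None of 11 antigen presentation genes passed limma's test (median 0.35), 4 had an unadjusted p below 0.05, and without sham 4, 2 rose.

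Markers of other cell types were read in the same way. Of 29 macrophage and monocyte markers none rose and 1 fell (3.45%, against 0.934% of all genes), while 25 had a change above 0 (median 0.63). In that list, without sham 4, 4 rose and 2 fell, and without TAC 2, 3 rose and 1 fell. The mean level was 9.15 to 9.66 in sham mice and 9.37 to 10.37 in TAC mice, with sham 3 above TAC 1 and TAC 2. The one that fell was Retnla, a marker of alternatively activated macrophages, at 524, 592, 905 and 496 in sham mice and 86.6, 265, 54.7 and 149 in TAC mice (-2.07 ± 0.36, adjusted p = 0.0225), with no overlap. Complement C1qa, made by macrophages, had 1.48, adjusted p = 0.09. No gene passed in either direction among 19 endothelial, 9 neutrophil, 13 lymphocyte, 4 erythroid, 8 adipocyte, 7 Schwann cell and 11 skeletal muscle markers, with medians of 0.48, 0.14, 0.27, 0.13, -0.11, 0.26 and -0.15. At an unadjusted p below 0.05 there were 10, 0, 1, 0, 0, 1 and 0 of them. Without sham 4, 8 endothelial markers rose and 2 fell, with a mean level of 10.18 to 10.80 in sham mice and 10.70 to 10.96 in TAC mice over all 8 mice. Of 15 pericyte and smooth muscle markers Cspg4 rose (1.03 ± 0.24, adjusted p = 0.0486), and Myh11, smooth muscle myosin, fell (-1.30 ± 0.30, adjusted p = 0.0484), together with Abcc9 above; without sham 4, 5 rose and 4 fell. Of 8 mesothelial markers only Krt18 rose, at 64.6, 73.3, 91.5 and 171 in sham mice and 327, 196, 704 and 695 in TAC mice (1.85 ± 0.39, adjusted p = 0.0384), while Msln and Upk3b had 0.48 and 0.24. Of 9 ventricular myocyte markers Ryr2 fell, and the list's median was -0.07. The part of these cell types in the results above was not tested.

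Stress responses other than the fetal genes were mixed. Of 39 genes of oxidative stress and detoxification 6 rose and 1 fell (median 0.17; 0 to 12 rose with 1 mouse left out). The metallothioneins Mt1 and Mt2, which bind zinc and copper, stood at 8039.9, 7986, 10232 and 9422 in sham mice and 15660.4, 18466, 15275 and 20518 in TAC mice for Mt1 (0.97 ± 0.15, adjusted p = 0.0187). Signals of Mt2 were 1899.9, 1729.6, 3176 and 1553 in sham mice and 5356, 6885, 6930 and 10156 in TAC mice (1.81 ± 0.25, adjusted p = 0.0119). Both were higher in every TAC mouse, TAC 2 included. Gclm, of glutathione synthesis, was at 706, 555, 583 and 637 in sham mice and 1128, 1352, 1184 and 1038 in TAC mice (0.89 ± 0.15, adjusted p = 0.0213), and the peroxidase Gpx3 rose by 1.71 ± 0.32. Ephx2, soluble epoxide hydrolase, fell from 8505, 8718, 7249 and 5701 in sham mice to 3848, 4634, 3004 and 3425 in TAC mice (-1.01 ± 0.18, adjusted p = 0.0257). The median over 45 chaperones and genes of endoplasmic reticulum stress was 0.15. With 1 mouse left out, 0 to 9 rose and 0 to 7 fell, the most without sham 4. In the main comparison 2 of the 45 rose (4.44%, against 2.27% of all genes) and 1 fell (2.22%, against 0.934%). They were the small heat shock protein Hspb1 at 10138, 9642, 14742 and 14988 in sham mice and 27528, 20242, 25049.8 and 22721 in TAC mice (0.97 ± 0.18, adjusted p = 0.0301), Hspa1l (1.39 ± 0.20, adjusted p = 0.0158), and Hspa5, the endoplasmic reticulum chaperone BiP, at 12866, 13154, 13081 and 9178 in sham mice and 7346, 8126, 7764 and 7701 in TAC mice (-0.63 ± 0.15, adjusted p = 0.0486), which fell.

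Of 43 cell cycle genes 1 rose (2.33%, against 2.27% of all genes) and 1 fell (2.33%, against 0.934%), with a median of 0.48. In that list, without sham 4, 7 rose and 2 fell, and without TAC 2, 7 rose and 1 fell. Cdkn1a, a cyclin-dependent kinase inhibitor, was at 285, 211, 974 and 396 in sham mice and 1261, 1018, 1466 and 2306 in TAC mice (1.79 ± 0.40, adjusted p = 0.0425), with sham 3 just below TAC 2. Cenpf, a kinetochore protein, was at 1358, 942, 1018 and 1111 in sham mice and 222, 358, 191 and 179 in TAC mice and fell with any mouse left out (-2.11 ± 0.22, adjusted p = 0.00613), while 34 of the 43 genes had a change above 0. No gene passed limma's test among 48 genes of autophagy and the proteasome, 18 clock genes and 30 cytosolic ribosomal proteins (medians 0.05, -0.05 and 0.10), and 12, 4 and 4 had an unadjusted p below 0.05. Without sham 4 the counts of these 3 lists were 9 higher and 3 lower, 0 and 1, and 3 and 1. In that fit 8.98% of all genes were higher and 6.21% lower. The 8 sex-chromosome genes also gave no call with limma (median -0.39, 5 with an unadjusted p below 0.05), and 4 of them were lower without sham 4.

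Oestrogen signalling genes gave no call in these mice. None of 15 receptors, targets and enzymes passed limma's test (median 0.11), 3 had an unadjusted p below 0.05, and without sham 4, 2 rose. Esr1, the alpha receptor that the knockout leaves, was at 106, 87.6, 103 and 37.1 in sham mice and 107, 70.2, 90.2 and 86.6 in TAC mice, near the median signal of the arrays and with overlapping groups (0.11 ± 0.26, adjusted p = 0.855, 95% interval -0.46 to 0.67). The membrane receptor Gper1 was at 116, 67.8, 41.3 and 154 in sham mice and 130.5, 139, 77.0 and 97.8 in TAC mice (0.24 ± 0.31, adjusted p = 0.693). For Esr2 itself the change was -0.22 ± 0.32, adjusted p = 0.741.

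Of the genes that passed with any mouse left out, 5 lay outside all lists and were chosen after their values were seen. The scaffold protein Cnksr1 rose by 2.12 ± 0.23 (adjusted p = 0.00642), the secreted protein Fibin by 1.84 ± 0.20 (adjusted p = 0.00642), Lman1l by 2.20 ± 0.25 (adjusted p = 0.00733) and Ngef, a guanine nucleotide exchange factor, by 1.94 ± 0.19 (adjusted p = 0.00559). Scara5, a scavenger receptor that takes up ferritin, fell (-1.59 ± 0.17, adjusted p = 0.00642).

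Other large changes also lay outside these lists. Dio2, the deiodinase that activates thyroid hormone, was at 113, 77.6, 119 and 102 in sham mice and 692, 301, 1819 and 1665 in TAC mice, with no overlap (2.80 ± 0.47, adjusted p = 0.0212). Falls were smaller than the top rises. Lix1 was at 304, 288, 170.1 and 157 in sham mice and 19.1, 115, 8.5 and 13.1 in TAC mice (-2.06 ± 0.40, adjusted p = 0.0315), and Slc16a7, a monocarboxylate transporter, at 234, 252, 209 and 133 in sham mice and 3.9, 64.7, 42.0 and 19.3 in TAC mice (-1.96 ± 0.32, adjusted p = 0.0206). In both, every TAC mouse lay below every sham mouse, with TAC 2 the highest TAC mouse. Aqp4, a water channel, was at 287, 352, 143 and 225 in sham mice and 40.3, 95.3, 29.3 and 34.3 in TAC mice (-1.80 ± 0.31, adjusted p = 0.0226), and Penk, the precursor of enkephalins, which the heart makes, at 458, 446, 375 and 360 in sham mice and 100, 278, 60.4 and 18.0 in TAC mice (-1.91 ± 0.45, adjusted p = 0.0484). The galectin Lgals4 was at 1873, 1094, 1720.5 and 1423 in sham mice and 356, 1115, 232 and 324 in TAC mice (-1.76 ± 0.39, adjusted p = 0.0416), with TAC 2 above sham 2, and the centrosomal protein Cep128 fell (-1.82 ± 0.34, adjusted p = 0.0295). TAC 2 was the TAC mouse nearest the sham mice in each of these falls.

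Whether the response of male knockout mice differs from that of other mice was tested as a difference of differences, with 16 arrays per comparison; both comparisons share the 8 knockout males. Against the 8 knockout females, which shared the 9 weeks of TAC, 0 of 18201 genes (0%) passed limma's test, with 721 (3.96%) at an unadjusted p below 0.05 and a smallest adjusted p of 0.695. Against the 8 wild-type males, whose time of TAC the labels do not give, 0 genes (0%) passed, with 1676 (9.21%) at an unadjusted p below 0.05 and a smallest adjusted p of 0.139. Without sham 4 of the knockout males, 41 genes were higher and 12 lower against the wild-type males, and leaving out another mouse gave at most 1 in either direction. The genes with the smallest p against the females were Cd209d, a lectin of macrophages, with a difference of 1.79 (95% interval 1.08 to 2.50), Tbrg3 with 1.39 (95% interval 0.83 to 1.95) and Oosp2 with 1.03 (95% interval 0.60 to 1.46). Against the wild-type males they were Lrrn1 with -2.26 (95% interval -3.04 to -1.48), the glutamate receptor subunit Grin3a with -1.57 (95% interval -2.13 to -1.02) and Marchf10 with 1.93 (95% interval 1.19 to 2.67). Picking the smallest p of 18201 genes tilts these differences away from 0, and the intervals do not allow for it. Some of the genes had low signal. Mean log2 levels were 5.25 for Lrrn1 and 5.44 for Grin3a in wild-type sham males, and 5.14 for Oosp2 and 5.39 for Tbrg3 in female TAC mice. The median over probe sets was 7.08 in the knockout males.

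For Myh7, Nppa and Col1a1 the intervals of these differences held 0. The Myh7 response was 3.08 in knockout females and 3.20 in wild-type males, with differences of 0.09 (95% interval -0.56 to 0.73) and -0.03 (95% interval -0.57 to 0.52). For Nppa they were 0.38 (95% interval -0.40 to 1.17) and 0.06 (95% interval -0.76 to 0.88), and for Col1a1 0.46 (95% interval -0.79 to 1.72) and 0.01 (95% interval -1.31 to 1.33). Of 122 genes chosen for other reasons, 12 had an interval on 1 side of 0 against the females and 30 against the wild-type males, 7 of them in both comparisons, and 0 passed limma's test on these differences. The 7 were Acsl6, Ankrd2, Gadd45g, Ier3, Itga5, Kcnd2 and Tgfb3. Tgfb3 differed by 0.85 (95% interval 0.22 to 1.49) from the females and by 0.72 (95% interval 0.03 to 1.41) from the wild-type males, and Kcnd2 by -0.97 (95% interval -1.79 to -0.16) and -1.17 (95% interval -1.90 to -0.44). Ankrd2 differed by 1.39 (95% interval 0.25 to 2.53) and 1.01 (95% interval 0.01 to 2.01). Of the 30, Gpr22 differed by -1.38 (95% interval -2.40 to -0.35), Mt1 by 0.71 (95% interval 0.32 to 1.10) and Fstl3 by 1.22 (95% interval 0.33 to 2.11) from the wild-type males. Camk2d differed by -1.14 (95% interval -1.68 to -0.59) from the wild-type males (adjusted p = 0.342), where its response was -0.15, and by -0.67 (95% interval -1.47 to 0.14) from the females. These genes were chosen on their change in the knockout males, which tilts such differences away from 0, and all of the 12 and of the 30 differed in the direction of that change. Bcl2 and Bcl2l11 differed by 0.48 (95% interval -0.26 to 1.21) and 0.01 (95% interval -0.56 to 0.58) from the females, and by 0.34 (95% interval -0.34 to 1.01) and -0.34 (95% interval -0.85 to 0.17) from the wild-type males.

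**Figure D5:**
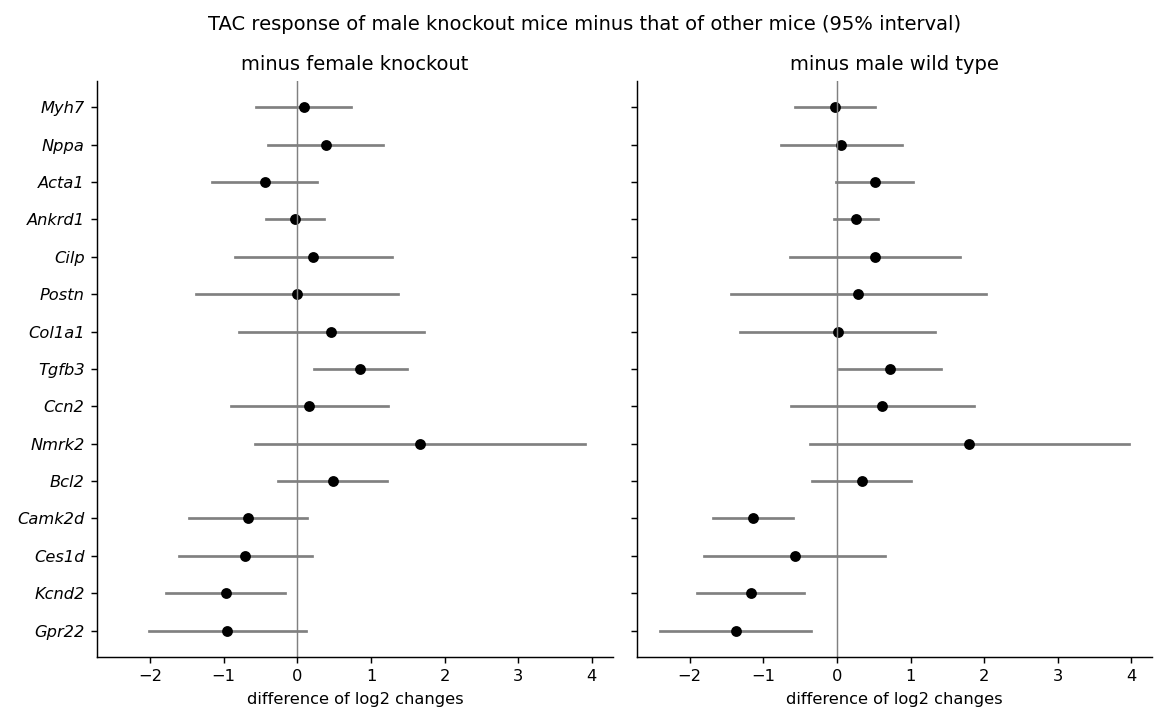
TAC response (log2 change) of male knockout mice minus that of female knockout mice (left) and of male wild-type mice (right) for 15 genes, with points for the difference and lines for its 95% interval. Most intervals cross 0, such as -0.56 to 0.73 for Myh7 on the left, and those of Tgfb3 and Kcnd2 do not in either panel.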

How the data were processed

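Per the labels' protocols, TRIzol total RNA of each left ventricle was amplified with an oligo(dT) primer and biotin-labelled. The authors deposited 1 signal intensity for each probe set on a linear scale, and the submitters' processing notes name MAS5 5.0. Further steps were not stated. Every array had a trimmed mean of 500 (2% trim), and the intensities were used as deposited.

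Of 45101 probe sets, 64 were array controls, 34957 had 1 gene symbol in the platform annotation, 920 several and 9160 none named here. The tested probe sets stood for 18201 genes, each read from its probe set with the highest mean over the 8 arrays. Only the 8 arrays entered the main comparison, as log2(signal + 32), in limma 3.58.1 (R 4.3.3; lmFit and trended eBayes). Tests were two-sided, adjusted by Benjamini-Hochberg over all 34957 probe sets with a threshold of 0.05. No filter on low signal was used. The differences between responses were contrasts of 4 groups in 16 arrays. Array controls were compared by exact permutation. The fit was tested on simulated data.

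The members and the 44 gene lists were chosen with earlier results of these data known. Of 1455 list entries 1332 were named on the arrays, and of a panel of 48 genes, 43. Named genes were the 12 largest rises and 12 largest falls past the threshold (clone names left out), for each list at most 4 of lowest p, the panel, and the 3 with the smallest p for each difference; other list members are named as examples chosen after their values were seen. Synonyms were used for 7 list genes only. Promoters were read from RefSeq (GRCm38.p6). Replicate numbers were taken as names of mice. Deviations of same-numbered mice from their group means correlated at -0.10, 0.15, 0.27 and 0.21. Each group had 4 arrays, which limits the precision. Other settings tried were other pseudocounts, a filter, quantile normalization, median centring, other summaries of probe sets, other variance settings, array weights, a replicate block, array-control covariates, all 8 groups in 1 fit, a fold minimum and each mouse left out.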

Additional observations from a re-analysis of the deposited data

Results flagged for a closer look

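Among 256 groups of 4 mice, the named genes in sham and in TAC mice, 9 groups held 1 mouse far from the other 3 by Dixon's criterion. Chance gives about 1 in 20 groups, so 9 of 256 is no more than chance gives. The values are log2(signal + 32). Sham 4 was low for Pdk4 (11.81, others 13.65 to 13.97) and for Hspa5 (13.17, others 13.65 to 13.69). TAC 2 was low for Bcl2 (8.91, others 9.83 to 9.94) and for Igfbp7 (13.64, others 14.60 to 14.65). Sham 2 was low for Fn1 (9.77, others 10.05 to 10.06) and Nmrk2 (7.26, others 7.86 to 7.98), and high for Mmut (12.17, others 11.95 to 11.97). Sham 3 was low for Lrrn1 (5.50, others 6.68 to 6.87) and high for Marchf10 (6.96, others 5.83 to 6.0), a pair of genes named for their difference from wild-type males.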

How the results depend on the processing

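The counts of 413 higher and 170 lower genes moved with the set of mice: leaving out 1 mouse gave 10 to 1635 higher and 2 to 1130 lower. All 583 genes kept their direction, which was fixed beforehand for the 578 without overlap. Other settings that moved them by more than 1.5 times were a filter at the median signal (759 and 344, fewer probe sets tested), array weights (2354 and 1656) and all 8 groups in 1 fit, which shares the spread of other groups (1882 and 1147). The lower count was 100 with no trend and 98 with a fold minimum. With the Gapdh 3-prime over 5-prime covariate 2 genes were higher and 0 lower, and with the beta-actin covariate, chosen after seeing the data, 1 and 0. Each covariate leaves fewer degrees of freedom. The beta-actin measure did not overlap between sham and TAC mice and cannot be told apart from surgery, and the cause was not tested otherwise. With a replicate block the counts were 630 and 320; 538 of the 583 genes were among them. Same-numbered mice were not treated as pairs. The 4 correlations of their deviations cannot decide this, since differently numbered mice were not compared. The difference from wild-type males (0 and 0) became 727 and 462 with array weights and ranged from 0 to 41 higher and 0 to 12 lower with 1 mouse left out; the cause was not tested. The difference from knockout females stayed at 0 genes in the settings run. The beta-actin control's difference of -0.36 ranged from -0.43 to -0.25 with 1 mouse left out, where the exact permutation test cannot pass 0.05. A smaller and a larger pseudocount, quantile normalization, median centring, averaged probe sets and robust variance kept the counts within 1.5 times. The genes were not all the same: of the 583, 430 passed with averaged probe sets and 483 with the larger pseudocount. With the other settings of this group 564 to 577 passed.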
